A study of Rattus norvegicus with 6 samples.

Results

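Endothelial cells line every blood and lymphatic vessel, and in the lung most of them form the capillary mesh around the alveoli. Growth factors of the VEGF and angiopoietin families, read by the receptor kinases Kdr, Flt1, Flt4, Tek and Tie1, keep these cells alive and let vessels sprout. Lung capillaries hold a gas-exchange type, marked in rodents by Car4, Tbx3 and Apln, and a general type marked by Aplnr and Plvap. Lymphatic vessels carry Lyve1 and the transcription factor Prox1.

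The endothelial genes described here are 42 listed genes of vessel identity, growth and function. Of these, 39 had a probe set annotated to that gene alone, out of 14217 genes measured this way. Cdh5, Robo4 and Ednrb were not analysed here. The 39 genes had 66 probe sets out of 31042. Signal was measured in whole lung of Lewis rats, an inbred strain, with 3 control animals given filtered air and 3 animals given aerosolized silica (Min-U-Sil 5). The silica animals inhaled 6.2 mg/m3 during 6 hours of each of 5 days a week, over 6 weeks. The sources used here give neither the animals' age nor the interval before the tissue was taken. Each animal gave 1 array, and this small number of arrays sets the precision.

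A gene's level is the linear signal of its brightest probe set, given as mean ± SD (n = 3 animals a group). A log2 fold change is silica minus control on the log2(signal + 16) scale, given with its SE. This scale understates differences of dim genes. Adjusted p comes from limma over all 31042 probe sets with Benjamini-Hochberg adjustment, and the threshold is 0.05. Levels of different probe sets are not compared. Array medians of log2(signal + 16) lay between 7.38 and 7.42. The log2 ratio of 3-prime to 5-prime signal of beta-actin and GAPDH, a sign of RNA quality, was 1.00 to 1.23 in control and 1.15 to 1.67 in silica. With this ratio as a covariate, 37 of the 39 genes had a log2 fold change below 0, with a median of -0.29. Surfactant protein C (Sftpc), which defines alveolar type 2 cells of lung, had a mean signal of 23196 in control and 21418 in silica.

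Signals of the endothelial genes were mostly lower in the silica lungs, by small amounts, and no gene passed the test by its brightest probe set. Of the 39 genes, 37 had a log2 fold change below 0, as had 46.3% of all genes, and 6 were below -0.5, as were 3.76% of all genes. The median was -0.25 over the 39 genes, -0.13 over 96 other endothelial genes described below and 0.02 over all genes. Of those 96 genes, 62 were below 0 and 34 above. Both sets were chosen with earlier results of these data known. In 19 of the 39 genes every silica array lay below every control array, and in 0 above, against 12.7% and 18.7% of all genes. By limma, 0 of the 39 passed, against 1.67% of all genes in either direction and 0.12% lower. At an unadjusted p under 0.05, 14 were lower and 0 higher, against 7.24% and 12.6% of all genes. The genes with the smallest p were Apln, Sox18 and Car4. The count was 3 with pseudocount 64, 5 with a gene's probe sets averaged, 6 without the dimmer 50% of probe sets and 8 with an intensity trend and robust spread, all lower in silica. The share of all genes called in either direction also went up under these settings, to 4.35%, 3.94%, 11.4% and 8.57%. In the main fit 1.55% of all genes were higher and 0.12% lower, and the lower share under these settings is not given. Without the dimmer probe sets 36 of the 39 genes were tested. In whole lung, fewer endothelial cells, less RNA per cell and a changed share of other cells cannot be told apart.

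**Figure D1:**
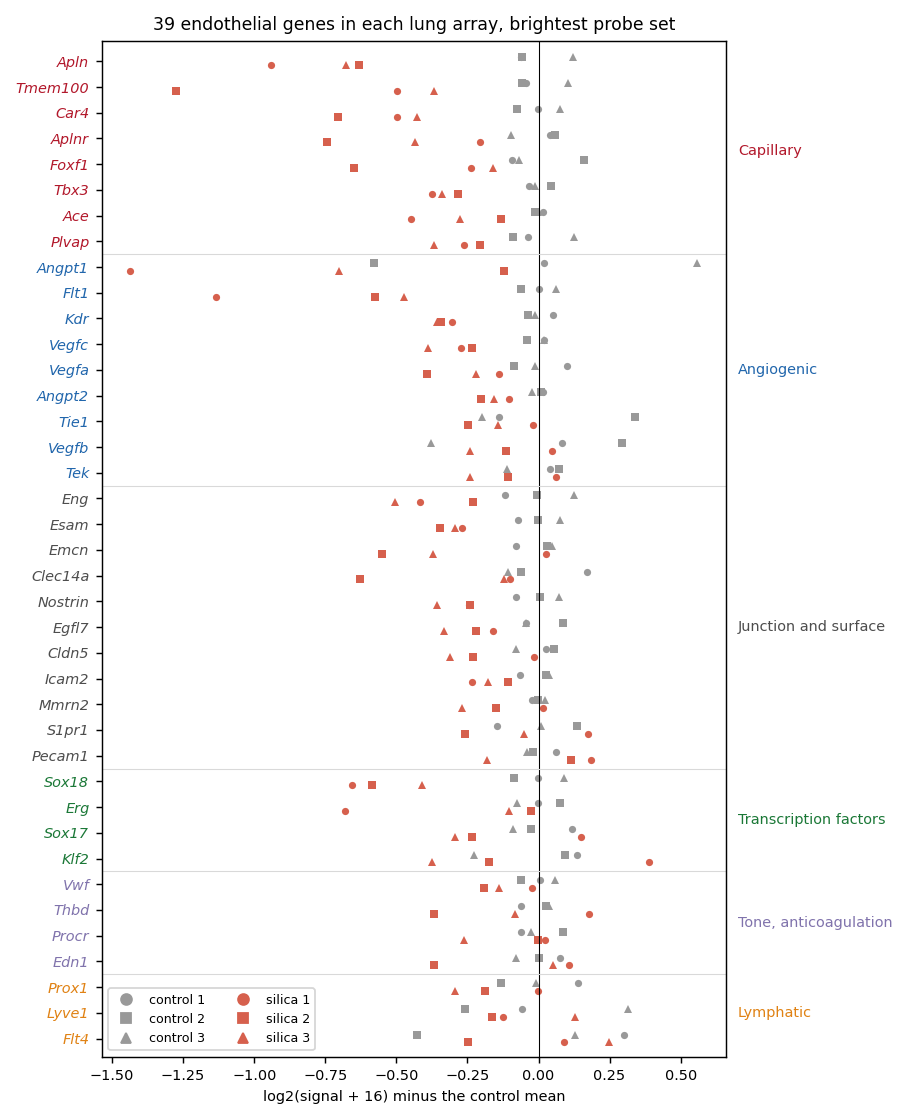
Each point is 1 array, placed by log2(signal + 16) minus the control mean of the gene, for the 39 endothelial genes in 6 groups; grey is control and red silica, and the marker shape is the replicate number. The 8 capillary genes have all silica points left of all control points, while the 3 lymphatic genes have mixed points.

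The capillary genes were lower in each silica array, and their median was the lowest of the 6 groups of endothelial genes. All 8 measured genes had separate groups of arrays with silica below control, and their median log2 fold change was -0.41. Of the 8, 7 had an unadjusted p under 0.05 and 0 passed after adjustment. Without any 1 of the 6 arrays the median ran from -0.49 to -0.36.

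Apelin (Apln), a secreted peptide that acts on the receptor Aplnr, had control signals of 2840.1, 2846 and 3225. In silica they were 1535, 1910.3 and 1848, so that no silica array came near the control arrays. The mean was 2970.3 ± 220 in control and 1765 ± 201 in silica, 40.6% lower. The log2 fold change was -0.75 ± 0.13, with a 95% interval from -1.06 to -0.44 (adjusted p = 0.0631). A further Apln probe set had -0.56 ± 0.24 (adjusted p = 0.299). The receptor gene Aplnr had 1895, 1918 and 1724 in control and 1596, 1093 and 1359.9 in silica, with silica replicate 2 the lowest. The receptor had a difference of -0.46 ± 0.16 on the log2 scale (adjusted p = 0.220), and a dimmer probe set had -0.93 ± 0.15 (adjusted p = 0.0562).

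Car4, a carbonic anhydrase on the surface of gas-exchange capillaries, had 1383, 1315 and 1461 in control and 976, 842 and 1027 in silica. The highest silica array was below the lowest control array. Its log2 fold change was -0.54 ± 0.12 (95% interval -0.82 to -0.26, adjusted p = 0.1002). A further Car4 probe set was near the floor of the array, at 22.5 or below in every animal. Tbx3, a T-box transcription factor, had narrow groups, with 467, 493 and 474 in control and 365, 390 and 374 in silica. The difference was -0.33 ± 0.09 on the log2 scale (adjusted p = 0.157). The further Tbx3 probe sets had -0.39, -0.07 and -0.02, so they differed in size from the brightest.

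Tmem100, a membrane protein needed for vessel development, had 5110, 5066 and 5661 in control and 3731, 2171 and 4079.6 in silica. Silica replicate 2 was far below the other two. The log2 fold change was -0.71 ± 0.25 (adjusted p = 0.224), and -0.43 without silica replicate 2. Ace, the angiotensin-converting enzyme of the capillary surface, had 6176, 6043 and 6089 in control and 4472, 5562 and 5040.4 in silica. Its log2 fold change was -0.29 ± 0.11 (adjusted p = 0.275), with -0.27 in a further probe set. Plvap, the diaphragm protein of fenestrae and caveolae, had 7980.3 ± 626 in control and 6575 ± 373 in silica, a difference of -0.28 ± 0.11 on the log2 scale (adjusted p = 0.265).

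Foxf1, a forkhead transcription factor needed for lung vessel growth, differed between its probe sets. The brightest had 1056, 1263 and 1075 in control and 954, 713 and 1007 in silica, which is -0.35 ± 0.16 on the log2 scale (adjusted p = 0.336), and -0.20 without silica replicate 2. The dimmer one fell from 528, 817 and 849.6 to 232, 289.9 and 254, by -1.42 ± 0.21 on the log2 scale (adjusted p = 0.0458). All 3 silica arrays of the dimmer probe set were below the control arrays. This call was lost whichever array was left out, with adjusted p between 0.0849 and 0.138, and with pseudocount 1 (0.0841), array weights (0.0566), no moderation (0.115), the RNA quality covariate (0.295) and the replicate block (0.153). It was also lost without control replicate 3 and silica replicate 1 together (0.286), and over all alternatives adjusted p ran from 0.00162 to 0.295. Most of these settings left few calls among all genes too. By brightest probe set, 238 of 14217 genes were called in the main fit, against 0 to 7 with 1 array left out. The number was 0 with the RNA quality covariate and 1 with the replicate block. It was 28 with no moderation, 29 with pseudocount 1 and 240 with array weights.

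**Figure D2:**
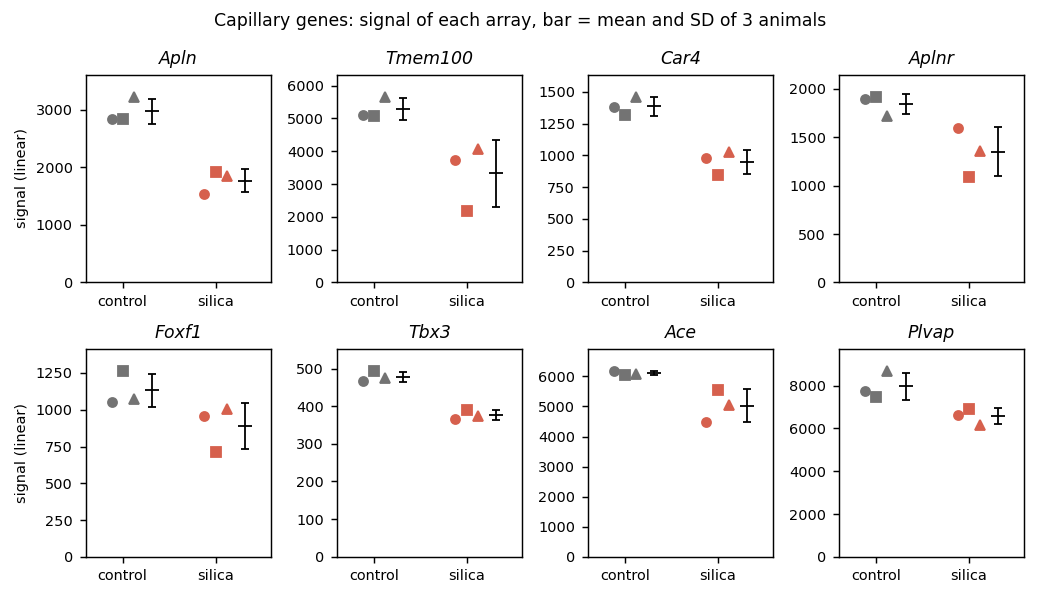
Linear signal of each array for the 8 capillary genes, from 0, with control in grey and silica in red; bars are the mean and SD of 3 animals. In each gene the 3 silica arrays are below the 3 control arrays, and Tmem100 has the widest spread in silica, 2171 to 4079.6.

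Promoter sequences were in the RefSeq table (build GRCr8) for 22 of the 39 genes by gene identifier, as 300 bases from 250 before to 50 after the start. Apln, Car4 and Flt1 are printed because their brightest probe sets had 3 of the 6 log2 fold changes below -0.5. Capitals mark 3 short motifs on either strand. They are AGGAAG, a core bound by ETS factors such as the endothelial factor Erg, ACAAAG, a core bound by SOX factors such as Sox17 and Sox18, and ACGTG, the core of hypoxia response elements.
Apln, GRCr8 chrX:132091197-132091496, minus strand: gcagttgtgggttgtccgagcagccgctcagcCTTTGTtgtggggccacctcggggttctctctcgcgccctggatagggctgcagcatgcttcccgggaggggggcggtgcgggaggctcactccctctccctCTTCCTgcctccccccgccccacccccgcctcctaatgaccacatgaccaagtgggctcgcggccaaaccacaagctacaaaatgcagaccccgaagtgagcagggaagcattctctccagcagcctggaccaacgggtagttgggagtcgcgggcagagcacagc
Car4, GRCr8 chr10:70325108-70325407, plus strand: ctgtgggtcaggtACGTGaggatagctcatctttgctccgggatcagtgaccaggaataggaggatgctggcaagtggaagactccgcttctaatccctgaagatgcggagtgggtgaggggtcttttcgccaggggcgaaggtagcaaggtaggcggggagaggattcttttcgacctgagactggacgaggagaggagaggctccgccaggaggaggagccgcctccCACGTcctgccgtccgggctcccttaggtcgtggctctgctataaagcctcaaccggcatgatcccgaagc
Flt1, GRCr8 chr12:12333180-12333479, plus strand: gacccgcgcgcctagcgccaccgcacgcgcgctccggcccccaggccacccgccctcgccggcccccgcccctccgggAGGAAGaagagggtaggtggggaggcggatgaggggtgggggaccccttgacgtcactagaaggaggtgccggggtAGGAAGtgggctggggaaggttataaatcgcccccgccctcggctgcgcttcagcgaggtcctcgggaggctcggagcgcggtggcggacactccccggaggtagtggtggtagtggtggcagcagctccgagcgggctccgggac

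The printed Apln promoter held 1 ETS and 1 SOX match, that of Car4 2 hypoxia matches, and that of Flt1 2 ETS matches. Over the 22 genes, AGGAAG or its reverse complement was in the promoter sequence of 14 (63.6%), against 34.5% of all 33469 promoters of this length. The first share counts genes and the second counts promoters, so their units differ. ACAAAG was in 5 (22.7%, against 18.8%) and ACGTG in 4 (18.2%, against 19.3%). A match describes these letters only and shows neither binding nor regulation.

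The angiogenic genes, growth factors and their receptors, lay below 0 in all 9 cases, with a median of -0.25 on the log2 scale. Which cells of the whole lung made these transcripts was not measured. In 5 of them the groups of arrays did not overlap, with silica below control. By limma 0 of 9 passed, and 3 were lower at an unadjusted p under 0.05. Kdr, the main signalling receptor for VEGF-A, had 8602, 8099.9 and 8234 in control and 6732, 6551 and 6486 in silica. Both groups were narrow and apart. The log2 fold change was -0.33 ± 0.09 (adjusted p = 0.153). A further Kdr probe set was dim, with means of 80.8 in control and 55.3 in silica. Its groups overlapped, with -0.43 ± 0.20 (adjusted p = 0.333).

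Flt1, the receptor that also acts as a VEGF decoy, had 464, 444 and 484 in control and 202, 306 and 329 in silica. Silica replicate 1 was the lowest and all silica arrays were below control. The log2 fold change was -0.73 ± 0.19 (95% interval -1.19 to -0.27, adjusted p = 0.147), and -0.43 with the RNA quality covariate (adjusted p = 0.521, range over the alternatives 0.0315 to 0.521). Silica replicate 1 also had the highest RNA quality ratio, 1.67. The gene's further probe sets differed, with -0.52 ± 0.18 (adjusted p = 0.227) and 0.01 ± 0.11 (adjusted p = 0.979). The angiopoietin receptor Tek and its partner Tie1 had overlapping groups, with log2 fold changes of -0.09 ± 0.12 and -0.14 ± 0.17. Tek had a mean of 9276 ± 620 in control and 8704 ± 919 in silica. The Tie1 value rested on control replicate 2, at 1752 against 1254 and 1201 in the other controls, and without it was 0.03.

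Among the ligands, Vegfc, which drives lymphatic growth through Flt4, had 1109, 1062 and 1109 in control and 902, 928 and 832 in silica. Its arrays were apart, with -0.30 ± 0.10 on the log2 scale (adjusted p = 0.201). Vegfa had 5731, 5028 and 5299 in control and 4853, 4065 and 4584 in silica, again apart, with -0.25 ± 0.11 (adjusted p = 0.326). A second Vegfa probe set had a mean of 1237 ± 46.0 in control and 824 ± 137 in silica, with -0.59 ± 0.14 (adjusted p = 0.134). Angpt2, an antagonist of Tek in many settings, had 211 ± 3.23 in control and 188 ± 6.96 in silica, with -0.16 ± 0.09 (adjusted p = 0.427). Angpt1, the Tek agonist, had the widest interval of the 39, with -0.75 ± 0.41 (95% interval -1.76 to 0.25). This value was -0.41 without silica replicate 1, -0.47 without control replicate 3, -0.13 without both, -0.32 with the RNA quality covariate and -0.48 with pseudocount 64. Its control signals of 101, 61.3 and 154 overlapped the silica signals of 26.7, 90.1 and 55.0. Vegfb had -0.10 ± 0.19, and 0.04 without control replicate 2.

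The lymphatic genes showed no common direction. Lyve1, a hyaluronan receptor, had 2823, 2457 and 3659.9 in control and 2691, 2621 and 3216 in silica, so the groups overlapped. Its log2 fold change was -0.05 ± 0.18 (95% interval -0.48 to 0.37), and a further probe set had -0.04. Prox1, the factor that sets lymphatic identity, had -0.16 ± 0.13 (-0.47 to 0.15), with 0.13 in a dimmer probe set and -0.09 without control replicate 1. Flt4, the receptor for Vegfc, had 0.03 ± 0.23 (-0.53 to 0.59). Prox1 and Flt4 were dim, at 116 or below on every array. These intervals include the capillary median of -0.41 for all 3 genes, so the data do not show that lymphatic and capillary genes differed. The lymphatic median was -0.05, with -0.18 without control replicate 2 and 0.09 without control replicate 3.

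**Figure D3:**
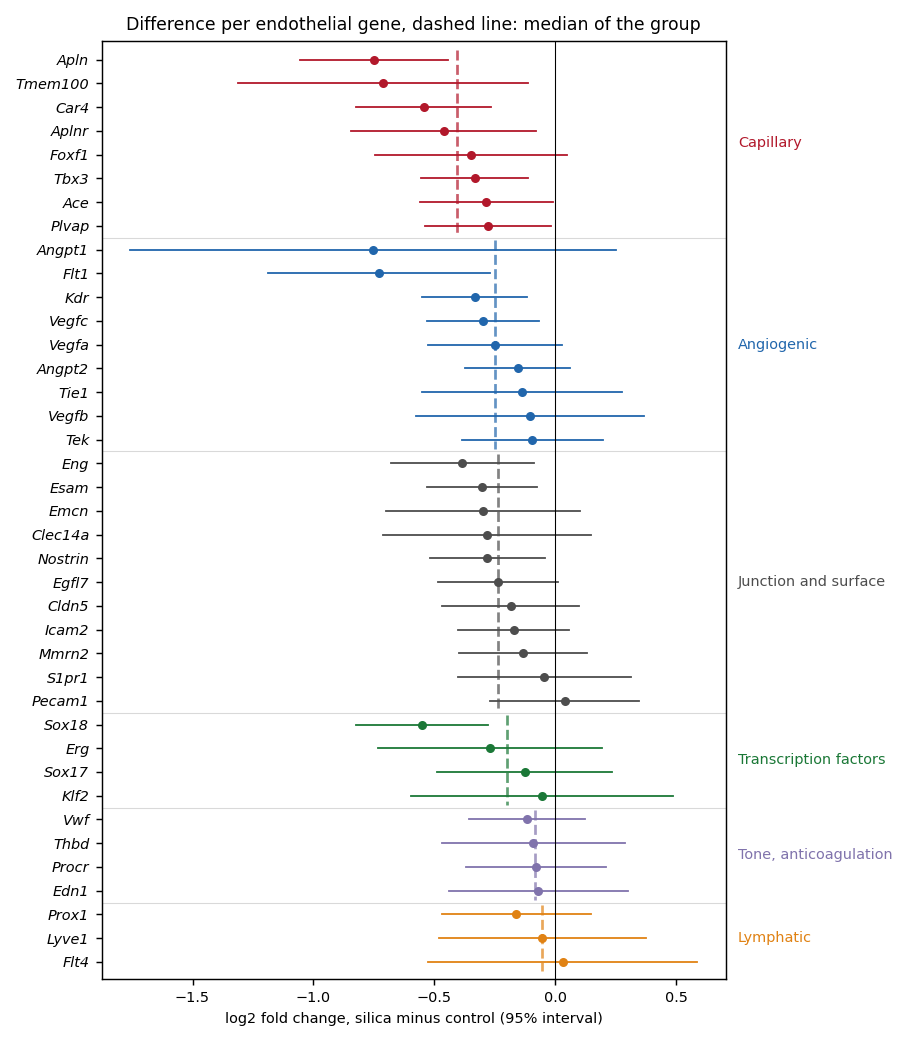
Log2 fold change (silica minus control) of the 39 endothelial genes with its 95% interval from limma, by group; the dashed line is the group's median. The median runs from -0.41 in capillary genes over -0.25 in angiogenic genes to -0.05 in lymphatic genes. The widest intervals are those of Angpt1, the capillary gene Tmem100, Flt4 and Klf2.

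Junction and surface genes shared by all endothelium had a median of -0.24, with 10 of 11 below 0 and 5 with separate arrays. By limma 0 of 11 passed, and 3 were lower at an unadjusted p under 0.05. Endoglin (Eng), a co-receptor of the TGF-beta family, had 3074, 3329.9 and 3639 in control and 2497, 2842 and 2351 in silica. Its log2 fold change was -0.38 ± 0.12 (adjusted p = 0.197). Esam, a junction adhesion molecule, had 4861, 5098 and 5380.2 in control and 4233, 4019 and 4161 in silica, with -0.30 ± 0.09 (adjusted p = 0.191). Nostrin, a regulator of endothelial nitric oxide synthase, had -0.28 ± 0.10 (adjusted p = 0.225), and its groups were apart too.

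Egfl7, a secreted protein of endothelium, differed between its probe sets. The brightest had -0.24 ± 0.10 (adjusted p = 0.302). The other fell from 2576, 2727 and 2829.6 to 1460.5, 1669 and 1418, by -0.83 ± 0.11 on the log2 scale (adjusted p = 0.0405). Its identifier ends in _s_at, which marks a probe set whose probes may match more than 1 transcript. This call was lost whichever array was left out, with adjusted p between 0.0896 and 0.137, and with pseudocount 1 (0.0698), no moderation (0.0724), the RNA quality covariate (0.243) and the replicate block (0.153). It was also lost without control replicate 3 and silica replicate 1 together (0.267), and over all alternatives adjusted p ran from 0.000574 to 0.267. Under the settings that lost this call, 0 to 29 of all 14217 genes were called, against 238 in the main fit. The Egfl7 gene contains the endothelial microRNA miR-126, which these arrays were not used to measure. It lies at chr3:29813219-29813240 on the plus strand in GRCr8, and its RefSeq sequence is shown with the seed (bases 2 to 8) in capitals.
rno-miR-126a-3p: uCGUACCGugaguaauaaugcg

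Emcn, Clec14a, Cldn5, Icam2 and Mmrn2 had log2 fold changes of -0.30, -0.28, -0.18, -0.17 and -0.13. In Emcn, a surface sialomucin, silica replicate 1 was within the control range at 4276, while the other silica arrays had 2859.9 and 3238. The Emcn value was -0.17 without silica replicate 2 and -0.46 without silica replicate 1. Clec14a, a vessel lectin, had 2336 in silica replicate 2 and 3373 and 3325 in the other silica animals, and its value was -0.11 without silica replicate 2. Without silica replicate 3, the Mmrn2 value was -0.067 and that of Cldn5 -0.12. The lymphocyte-egress receptor S1pr1 had -0.05 ± 0.15, and it turned to 0.06 without silica replicate 2. Pecam1, the adhesion molecule CD31, had 1503, 1423 and 1399 in control and 1640.1, 1560.5 and 1268 in silica. Its log2 fold change was 0.04 ± 0.13 (95% interval -0.27 to 0.35), and -0.03 without silica replicate 1.

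The 4 endothelial transcription factor genes were all below 0, with a median of -0.20, and by limma 0 passed and 1 was lower at an unadjusted p under 0.05. This was Sox18, a SOX factor of vessel development, which had 2273, 2143 and 2421 in control and 1438, 1511 and 1708 in silica. All silica arrays were below control, 31.9% lower in the mean. The log2 fold change was -0.55 ± 0.11 (95% interval -0.82 to -0.28, adjusted p = 0.0929). Sox17, a factor of arterial endothelium, had -0.13 ± 0.15 with overlapping arrays in its brightest probe set, and -0.26 to -0.04 with 1 array left out. Its 2 dimmer probe sets both had -0.74 ± 0.20 (adjusted p = 0.159), and 1 of them was dim, at 27.5 or below on every array. The ETS factor Erg had -0.27 ± 0.19, with silica replicate 1 at 1344 against 2124 and 2011 in the other silica arrays, and -0.07 both without it and with the RNA quality covariate. A dimmer Erg probe set had -0.38 ± 0.11 (adjusted p = 0.177). Klf2, a factor induced by shear stress, had -0.05 ± 0.22, with 9217 in silica replicate 1 and 5420 in silica replicate 3. Its further probe sets had -0.50 ± 0.19 (adjusted p = 0.262), -0.27 ± 0.24, -0.02 ± 0.10 and 0.00 ± 0.15.

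Genes of vessel tone and anticoagulation showed small differences, with a median of -0.09. Vwf, the von Willebrand factor of larger vessels, had 4239 ± 178 in control and 3907 ± 236 in silica (-0.12 ± 0.10). Thrombomodulin (Thbd) had -0.09 ± 0.16, the protein C receptor Procr -0.08 ± 0.12, and endothelin 1 (Edn1) -0.07 ± 0.15. In all 4 the arrays overlapped and 0 had an unadjusted p under 0.05. Their 95% intervals reached from -0.47 to 0.30 at the widest bounds.

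Further probe sets mostly had the sign of the brightest. Of the 39 genes, 19 had several, and 24 of 27 further probe sets had the same sign. The exceptions were 1 probe set each of Flt1, Klf2 and Prox1. In size they varied, with 14 lower than the brightest and 13 higher, and a median of -0.38. Of all 66 probe sets, 2 fell and 0 rose, against 0.145% and 0.934% of all probe sets. Silica lay below control on every array in 31, against 12.2% of all probe sets. With each gene's probe sets averaged and p adjusted over 14217 genes, 3.94% of all genes passed in either direction. The endothelial genes that passed were Foxf1 (-0.88, adjusted p = 0.0255), Aplnr (-0.70, 0.0338), Sox18 (-0.55, 0.0425), Sox17 (-0.54, 0.0221) and Egfl7 (-0.54, 0.0310). Averaging gives dim probe sets the same weight as bright ones. The Sox17 average rests on its 2 dimmer probe sets, 1 of them at 27.5 or below on every array, while its brightest had -0.13.

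**Figure D4:**
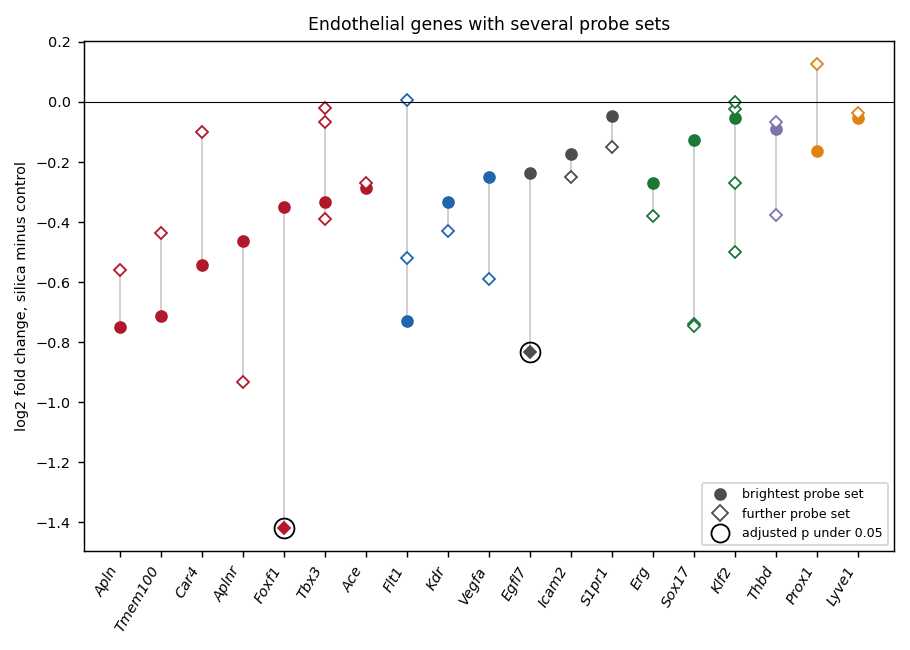
Log2 fold change (silica minus control) of each probe set of the 19 endothelial genes with several probe sets; filled circles are the brightest, diamonds further probe sets, and black rings mark adjusted p under 0.05. Foxf1 and Egfl7 have ringed dimmer probe sets at -1.42 and -0.83, far from their brightest ones at -0.35 and -0.24.

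Other endothelial genes, from lists of vessel genes outside the 42, were measured for 96 of 103. By limma 0 passed by their brightest probe set, against 1.67% of all genes. At an unadjusted p under 0.05, 27 were lower and 3 higher, against 7.24% and 12.6% of all genes. The count past the threshold was 9 without the dimmer 50% of probe sets, 14 with the trend, 3 with pseudocount 64 and 1 with the mean of probe sets, all lower. Of all genes, 11.4%, 8.57%, 4.35% and 3.94% passed under these settings, in either direction. Without the dimmer probe sets 78 of the 96 genes were tested. The other capillary genes had a median of -0.27, with 11 of 15 below 0. Gpihbp1, which anchors lipoprotein lipase on capillaries, had 1169 ± 106.5 in control and 612 ± 151 in silica (-0.94 ± 0.20, adjusted p = 0.0992). Npr3, a natriuretic peptide clearance receptor, went the other way with 0.83 ± 0.19 (adjusted p = 0.115), but was below 32 on every array. Among other angiogenic genes, with a median of -0.17, Hgf had 51.9 ± 6.78 in control and 13.7 ± 10.3 in silica (adjusted p = 0.0971). The Hgf log2 fold change was -1.25 ± 0.26, but its silica signals of 4.2, 24.7 and 12.2 were below 32, as were those of Npr3. Both folds thus rest on dim signals. Fgf1 had -0.40 ± 0.10 (adjusted p = 0.142).

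Of other pan-endothelial genes, with a median of -0.18, Cd93 had 4591 ± 339.5 in control and 3193 ± 146 in silica (-0.52 ± 0.10, adjusted p = 0.0902), and She had -0.62 ± 0.15 (adjusted p = 0.127). Other arterial and venous genes had a median of -0.09, with Cytl1 at -0.49 ± 0.17 and the Notch target Hey1 at -0.38 ± 0.14. Other lymphatic genes had a median of -0.03, with 6 below and 6 above 0. Nrp2, a VEGF-C co-receptor, had 0.36 ± 0.12 (adjusted p = 0.220), and Pdpn, also a gene of alveolar type 1 cells, -0.29 ± 0.10 (adjusted p = 0.207). Other genes of shear response and haemostasis had a median of 0.01, with tissue factor (F3) at 0.21 ± 0.10 and Klf4 at -0.34 ± 0.22.

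Markers of other cell types moved beside these genes. Among T and NK cell markers 7 of 12 rose, against 1.55% of all genes, and their summed signal was 5354 to 5775 in control and 10819 to 12514 in silica. Among macrophage markers 2 of 8 rose (11909 to 12676 and 15981 to 17294), among neutrophil markers 2 of 7 (10736 to 12135 and 26645 to 38979), and among mast cell markers 2 of 7 (1337 to 1510 and 2079 to 2681). Much of the neutrophil sum was Lcn2, with a mean of 5083 in control and 19150 in silica. Silica lay above control on every array in 4 of the 7 neutrophil markers, while Csf3r, Cxcr2 and Mmp8 overlapped. The macrophage markers that rose were Cd68, with means of 2764 and 5138, and Itgax, with 1784 and 3195. Csf1r, Mrc1, Mertk, Fabp4 and Cd163 overlapped, and Cd163 had -0.45 on the log2 scale. Of the 7 mast cell markers 5 lay above control on every array, while Kit lay below on every array, with -0.63. Alveolar type 1 markers had 0 of 9 called, 8 below 0 and a median of -0.29, close to that of the endothelial genes, with sums of 84149 to 89366 and 70144 to 75065. Of these 9, Cav1 and Pdpn are also in the other endothelial lists. Alveolar type 2 markers had a median of -0.07, fibroblast markers -0.19 and smooth muscle and pericyte markers -0.10, with 0 called in each. Airway markers had a median of -0.26, with 4 of 5 below 0 and sums of 39051 to 46252 in control and 35320 to 40245 in silica. Erythroid markers had a median of -0.30, with 3 of 3 below 0 and sums of 24067 to 26051 and 19801 to 23575. In both lists 0 were called. No marker in the immune lists was under 32 on all arrays. The part of these cells in the endothelial result was not tested.

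By array, the median of the 39 genes against the control mean was -0.14 in silica replicate 1, -0.23 in replicate 2 and -0.29 in replicate 3, and near 0 in each control. In capillary genes it was -0.41, -0.64 and -0.37, and in junction and surface genes -0.10, -0.23 and -0.29. The capillary median was thus the lower one in each silica array. The lists of other endothelial genes did not repeat this order. In silica replicates 1, 2 and 3 the other capillary genes had -0.095, -0.33 and -0.27. The other angiogenic genes had -0.25, -0.17 and -0.29, and the other pan-endothelial genes -0.103, -0.13 and -0.22. The other capillary median was the lowest of these lists in silica replicate 2 only. Silica replicate 2 was the lowest silica array in 16 of the 39 genes, replicate 3 in 15 and replicate 1 in 8.

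**Figure D5:**
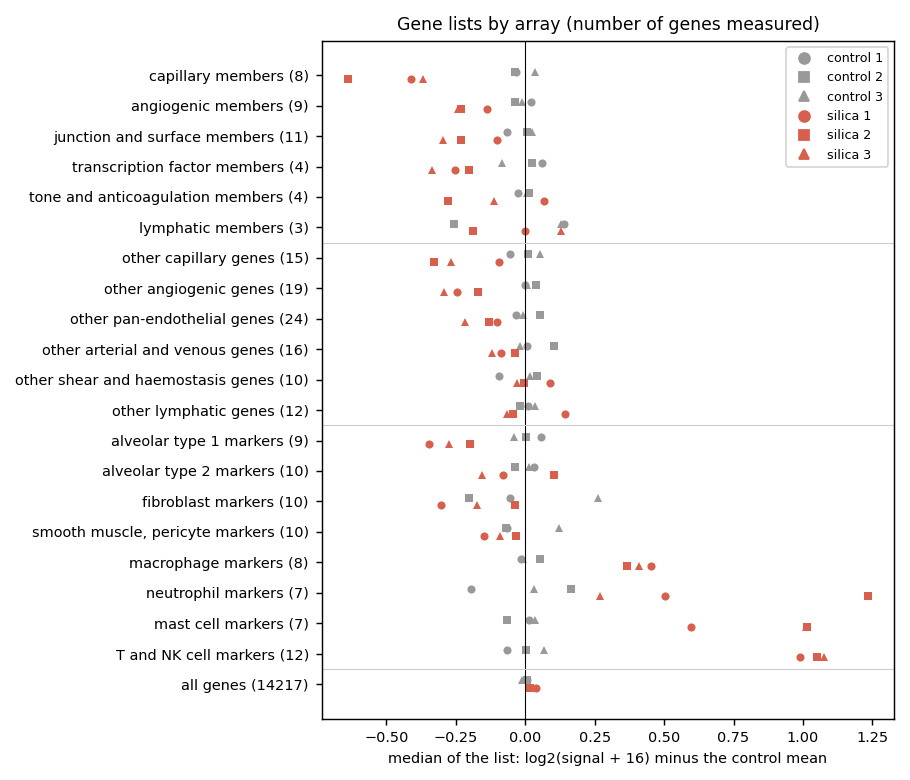
Median over each list of log2(signal + 16) minus the control mean, 1 point per array, with control in grey and silica in red and the number of measured genes in brackets. Capillary members lie at -0.64 to -0.37 in silica, lymphatic members straddle 0, and T and NK cell markers lie near 1.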

How the data were processed

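Lung RNA of 3 control and 3 silica-exposed rats was labelled with biotin by in vitro transcription, per the labels' protocols, and measured on 1-colour arrays. The deposited values are linear signal intensities. Their trimmed means of 500.14 to 500.15 show that each array had been scaled by 1 factor. The sources used here do not name the software. Of 31099 probe sets, 57 array controls were left out, 20826 had 1 gene and were named, 436 had several and 9780 were not listed. Symbols were updated through a RefSeq table (GRCr8). Log2(signal + 16) was fitted with limma 3.58.1 (lmFit, eBayes) in R 4.3.3, with 4 residual and 2.18 prior degrees of freedom, and the fit was tested on simulated data. Every measured endothelial gene is named. Of each other endothelial list the 2 genes with the smallest p are named. The genes and lists were chosen with earlier results of these data known. Alternatives covered normalization, filter, spread, pseudocount, weights, pairing, RNA quality, probe sets, threshold and arrays left out.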

Additional observations from a re-analysis of the deposited data

How the results depend on the processing

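The count of endothelial genes past the threshold was 0 and became 6 without the dimmer 50% of probe sets, 8 with trend and robust spread, 3 with pseudocount 64 and 5 with the mean of all probe sets. For the other endothelial genes it was 0 and became 9, 14, 3 and 1. The share of all genes called in either direction was 1.67% and became 11.4%, 8.57%, 4.35% and 3.94%. The count of endothelial probe sets was 2 and became 10, 12 and 6 under the first 3 of these settings, 1 with array weights, and 0 with no moderation, pseudocount 1, the RNA quality covariate, adjusted p under 0.01, control replicate 3 and silica replicate 1 left out together, and each array left out (0 to 0). With the replicate number as a block it was 0, and the genes past the threshold stayed 0. Of all 14217 genes, 238 were called in the main fit and 1 with this block. Their count was 28 with no moderation, 29 with pseudocount 1, 0 with the RNA quality covariate and 0 to 7 with 1 array left out. For pairing, each probe set's group mean was subtracted and the remaining deviations of the arrays were correlated. Same-numbered arrays had 0.0924, 0.0350 and 0.0875, each highest with its own number, and arrays of different number -0.0785 to -0.00219. Deviations within a group sum to 0, so positive values for the same number bring negative values for other numbers. These correlations are weak, and the labels do not say what a number stands for, so pairing was not shown. The median over the 39 genes ran from -0.27 to -0.18 with 1 array left out, and was -0.18 without silica replicate 2. The angiogenic median was -0.20 without the dimmer probe sets, -0.32 with the RNA quality covariate, -0.30 without control replicate 3 and silica replicate 1, -0.30 with the mean of probe sets, and -0.31 to -0.18 with 1 array left out. The lymphatic median was 0.17 with the RNA quality covariate and -0.18 to 0.09 with 1 array left out. Pecam1 turned to -0.15 with the covariate and -0.055 without both arrays, and Lyve1 to 0.19 and 0.14. With 1 array or both these arrays left out, log2 fold changes crossed 0 for Tie1 (-0.30 to 0.032), Vegfb (-0.37 to 0.044), S1pr1 (-0.15 to 0.061), Klf2 (-0.39 to 0.11), Pecam1 (-0.055 to 0.15), Flt4 (-0.18 to 0.18), Lyve1 (-0.18 to 0.14), Edn1 (-0.20 to 0.080), Procr (-0.14 to 0.011) and Thbd (-0.23 to 0.048). The causes were not tested. The number of the 39 genes below 0 was 37 under quantile normalization and under median centring, and 32 to 38 with 1 array left out. Angpt1, Prox1 and Flt4 have no value without the dimmer probe sets, where the lymphatic median is that of Lyve1 alone, and averaging probe sets gives no count of probe sets. With 3 arrays a group, a p that misses the threshold does not show that a gene was unchanged.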
